A study of Mus musculus with 6 samples.

Results

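The Clec genes encode proteins of the C-type lectin family, named for a calcium-dependent sugar-binding fold that many members have kept and others have turned to protein or lipid ligands. On macrophages, monocytes, neutrophils and dendritic cells, activating members such as Dectin-1 and Mincle bind fungal, mycobacterial or dead-cell ligands and signal through the kinase Syk and the adaptor CARD9, whereas inhibitory members recruit phosphatases. Other members sit on platelets, vessel walls or lymphoid cells, or are secreted. Members were every gene of the platform annotation whose symbol is Clec followed by a number, with an optional letter and number, Clec9a left out, each read by the brightest probe set that names that gene alone. This gave 31 of the 22180 genes measured, and each had 1 such probe set. By use, 15 are myeloid receptors and 16 serve elsewhere.

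The values come from 6 tumours of the mouse melanoma line B16-F1, each on its own array, 3 grown in Stat2 KO hosts, against 3 in WT hosts, all on a C57BL6 background and collected 20 days after implantation. STAT2 is a transcription factor of the type I interferon response. The genotype is the host's. The labels do not describe the implanted cells, a single line shared by both groups, as altered in Stat2, and the ages of the mice were not stated there. Whether each tumour came from a different mouse was not stated either, and p-values therefore reflect the spread among these 6 tumours, which may include technical spread. All values are RMA log2 expression values, and the number of arrays limits their precision.

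Stat2 itself read 6.45, 6.48 and 6.33 in Stat2 KO hosts, against 6.79, 6.70 and 6.70 in WT hosts, a log2 difference of -0.31 (SE 0.126, limma adjusted p = 0.532). Its groups did not overlap, but which exons its probe set reads was not given, and the labels are therefore only weakly checked by it. All 8 melanocyte markers read above the median gene, from 9.27 for Sox10 to 13.2 for Dct on average. Stat2 KO replicate 2 stood somewhat apart, with correlations across genes of 0.964 to 0.975 with the other arrays, which correlated with each other at 0.976 to 0.986.

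Most Clec members read low on these arrays. The median gene read 6.33, and 27 members lay below it, among them all 15 myeloid receptors. Probe sets of different genes bind with different strength, so a level sets no order among genes. As a gauge of the dim range, olfactory receptor genes, whose known use is in the nose, had a median of 5.21 and a 90th percentile of 6.43 over 1105 genes. Of the 31 members, 28 lay below that percentile, and Clec4a4, Clec4b1 and Clec1b lay below the olfactory median of 5.21 in both groups. Detection calls were not used here, so a low reading is not shown to exceed background, and the size of a difference at this level is uncertain.

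The same dim range differed between the groups. Olfactory receptor genes had median levels of 5.28, 5.33 and 5.47 in tumours of Stat2 KO hosts, against 5.12, 5.07 and 5.17 in tumours of WT hosts. Their median log2 difference was 0.22, while that of all genes was 0.021. Of the 1105 olfactory genes 903 were higher, where all genes gave 11988 of 22180. At an unadjusted limma p under 0.05, 260 olfactory genes were higher, 23.5% of them where all genes gave 5.34%, and 6 were lower, 0.543% where all genes gave 3.48%. This shift is given beside the members because they read in the same range, and its part in their differences was not tested.

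**Figure D1:**
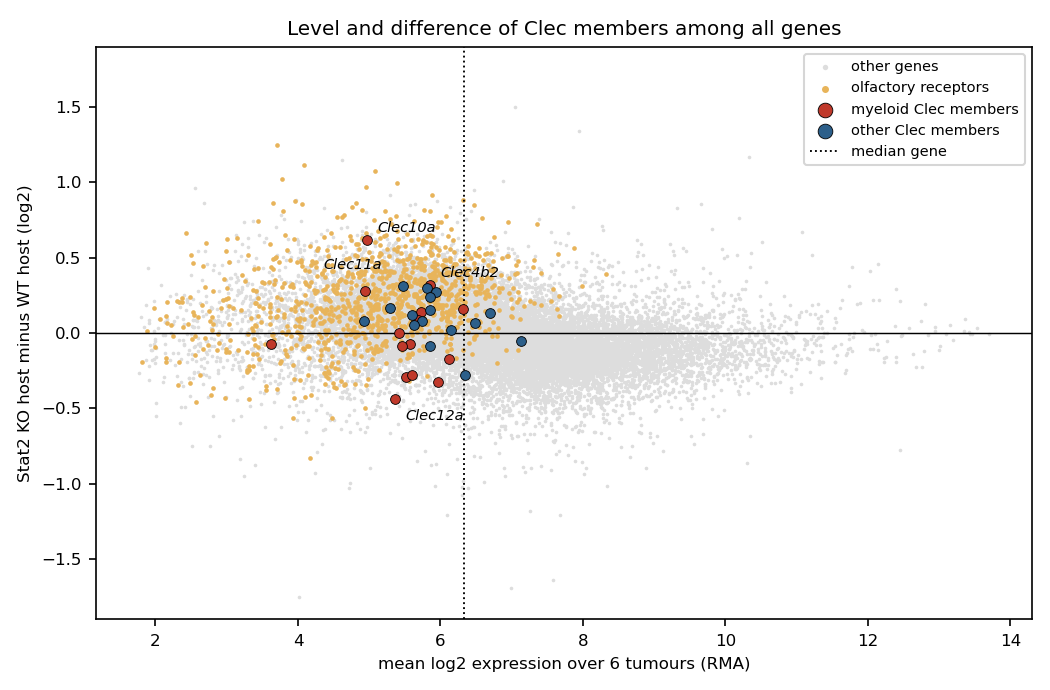
Mean log2 expression over the 6 tumours (horizontal) against the log2 difference, Stat2 KO host minus WT host (vertical), for all 22180 genes, with olfactory receptor genes in orange, myeloid Clec members in red and other Clec members in blue. The dotted line is the median gene at 6.33, and most members lie to its left, among olfactory receptor genes whose median difference is 0.22.

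No Clec member changed between Stat2 KO and WT hosts past the adjusted threshold. Clec10a, a galactose-binding uptake receptor of macrophages and dendritic cells, had the largest positive difference, and Clec12a, an inhibitory receptor of myeloid cells, the largest negative one. With limma and Benjamini-Hochberg adjustment over all genes, 0 of 31 members had an adjusted p under 0.05, a rule that 0.00902% of all genes met. At an unadjusted p under 0.05 there were 4 members, 12.9% of them, where the share of all genes was 8.82%. The 3 higher ones, Clec10a, Clec4b2 and Clec11a, made up 9.68% of members against 5.34% of all genes, and the 1 lower one, Clec12a, 3.23% against 3.48%.

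That split moved with the scaling. After a further quantile normalization it was 1 higher and 4 lower, and after median centring and after cyclic loess it was 1 higher and 5 lower each. In both directions together these were 5, 6 and 6 of 31 members, where all genes gave 7.59%, 7.94% and 7.57%. Shares of all genes by direction are not given for these scalings. Clec10a and Clec12a kept an unadjusted p under 0.05 in each of the 14 alternatives that retained them. The groups did not overlap for 7 members, 22.6%, where all genes gave 13.3% and olfactory receptor genes, in the same dim range, 22.2%. Of these members, 4 were higher, against 8.23% of all genes, and 3 were lower, against 5.11%. Among the 1105 olfactory genes 236 were higher and 9 lower by that rule. With 3 tumours a side the exact two-sided permutation p of such a member is 0.1, the smallest the design allows. In bulk tumour RNA, fewer cells of a type and less RNA per cell cannot be told apart.

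**Figure D2:**
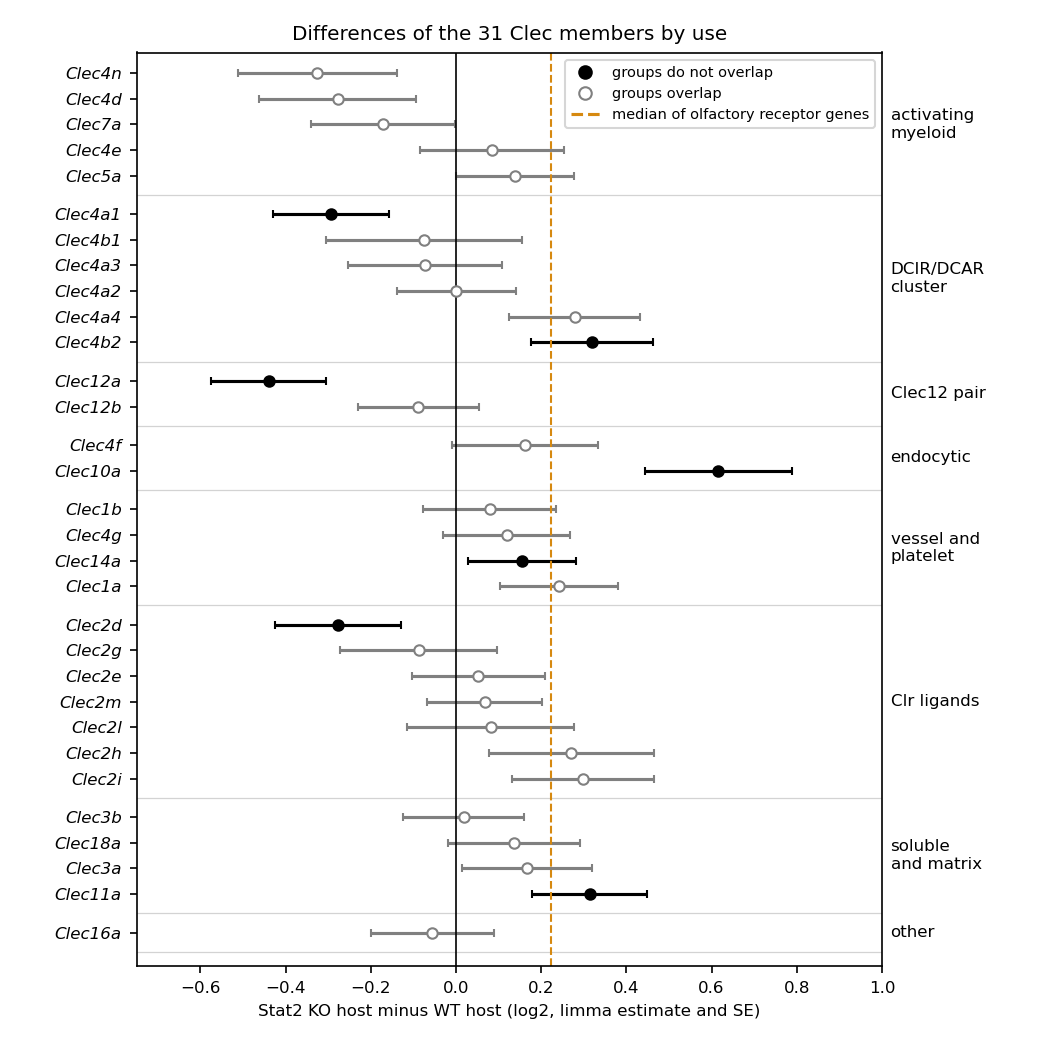
Log2 differences, Stat2 KO host minus WT host, of the 31 members with the limma SE as bars, grouped by use. Filled points mark the 7 members whose groups do not overlap, and the dashed line marks the olfactory receptor median of 0.22. Clec10a lies farthest to the right and Clec12a farthest to the left.

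Clec10a, the macrophage galactose-type lectin MGL1, takes up galactose-bearing glycoproteins into macrophages and dendritic cells. It read 5.19, 5.46 and 5.18 in tumours of Stat2 KO hosts, against 4.61, 4.42 and 4.96 in tumours of WT hosts. Every Stat2 KO tumour lay above every WT tumour, with Stat2 KO replicate 2 highest and WT replicate 2 lowest. The means were 5.28 ± 0.158 in Stat2 KO hosts, against 4.66 ± 0.270 in WT hosts (SD, n = 3 each), a log2 difference of 0.62 (SE 0.172, limma adjusted p = 0.46), or 1.53-fold. Without Stat2 KO replicate 2 it was 0.52, and over all alternatives it ran from 0.50 to 0.76 with adjusted p-values of 0.0525 to 0.908. Its WT mean lay below the olfactory median of 5.21 over all 6 tumours. Taken by group, both means lay below the olfactory median, which was 5.355 in Stat2 KO hosts, against 5.117 in WT hosts. Mgl2, the close paralog of Clec10a, differed by -0.09 (SE 0.166, limma adjusted p = 0.88).

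Clec4f, which marks Kupffer cells of the mouse liver and also binds galactose, read 5.99, 6.58 and 6.61 in Stat2 KO hosts, against 6.29, 6.14 and 6.26 in WT hosts. One Stat2 KO tumour lay below all WT tumours and the others above them, so the groups overlapped. The difference was 0.16 (SE 0.171). It was 0.36, with an unadjusted p under 0.05, without Stat2 KO replicate 1, and 0.067 and 0.054 without replicates 2 and 3.

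Clec12a, an inhibitory receptor of monocytes, neutrophils and dendritic cells that senses uric acid crystals, read 5.17, 5.17 and 5.08 in Stat2 KO hosts, against 5.61, 5.65 and 5.48 in WT hosts. Each Stat2 KO tumour read lower than each WT tumour, and the spread within each group was small. The means were 5.14 ± 0.0531 in Stat2 KO hosts, against 5.58 ± 0.0914 in WT hosts (SD, n = 3 each), a log2 difference of -0.44 (SE 0.135, limma adjusted p = 0.472), a change of -26.3% by estimate. Without Stat2 KO replicate 2 it was -0.45. Across the alternatives it stayed between -0.54 and -0.40, with adjusted p-values of 0.0547 to 0.908. The Stat2 KO mean of Clec12a lay below the olfactory median of 5.21. Olfactory receptor genes had a median difference of 0.22, and the part of that shift in the Clec12a difference was not tested. The neighbour of Clec12a, Clec12b, also an inhibitory receptor, differed by -0.09 (SE 0.142), with a 95% interval of -0.40 to 0.22.

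**Figure D3:**
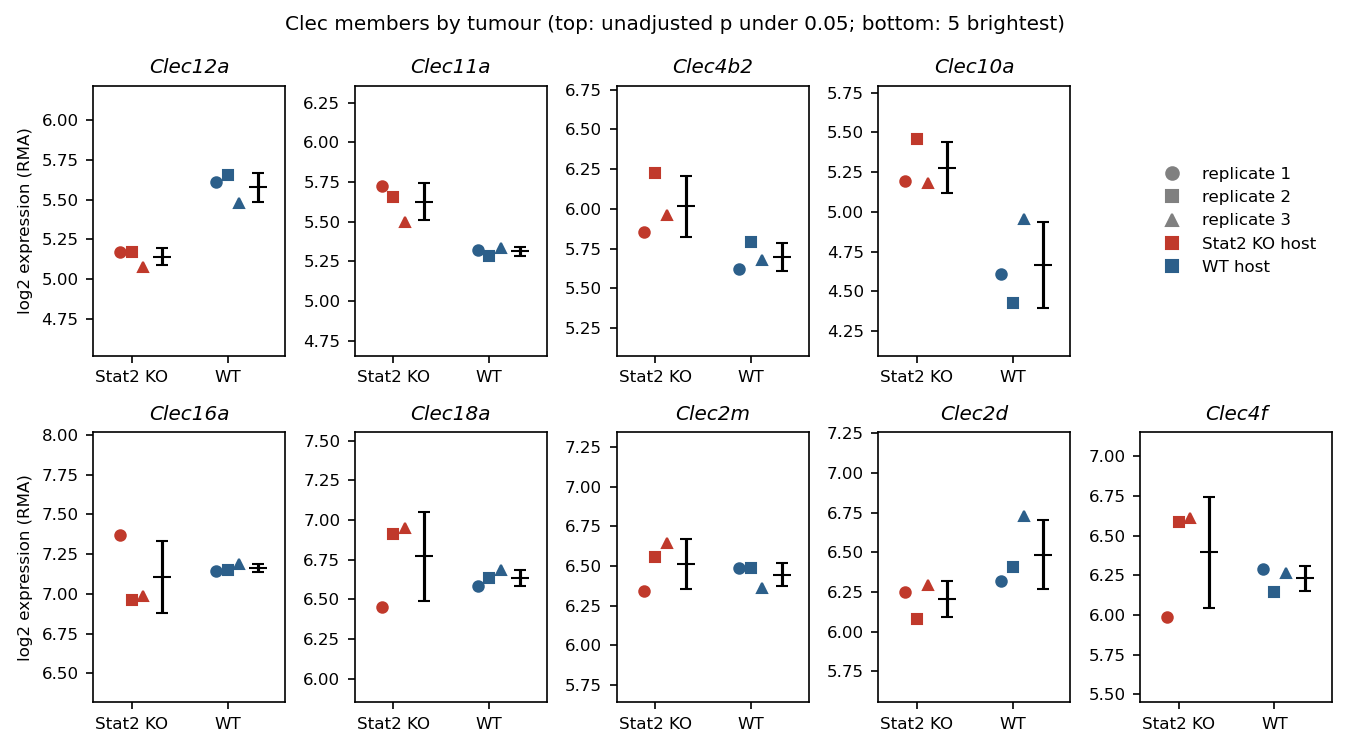
Log2 expression by tumour for the 4 members with an unadjusted p under 0.05 (top) and the 5 members with the brightest probe sets (bottom), red for Stat2 KO hosts and blue for WT hosts. Shapes mark replicate numbers, black bars the mean and SD, and every panel spans an equal range. Clec12a and Clec10a show the widest gaps between groups.

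None of the 5 activating myeloid receptors had an unadjusted p under 0.05 with all tumours. All 5 had overlapping groups, 3 were lower and 2 higher, and their median difference was -0.17. Clec4n, Dectin-2, which binds fungal mannans, averaged 5.80 ± 0.210 in Stat2 KO hosts, against 6.13 ± 0.361 in WT hosts (SD, n = 3 each), a difference of -0.33 (SE 0.186). WT replicate 3 held its highest value, 6.53, and without that tumour the difference was -0.12. It was -0.46 without WT replicate 1 and -0.42 to -0.40 under the 3 other scalings, and in these 4 alternatives and with the replicate block its unadjusted p was under 0.05. Clec4d, the partner chain of Mincle, differed by -0.28 (SE 0.185), and without Stat2 KO replicate 1, its lowest tumour at 5.11, by -0.10. Clec4d had an unadjusted p under 0.05 without WT replicate 1, at -0.43, and after median centring and cyclic loess, at -0.35 and -0.38.

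Clec7a, Dectin-1, the receptor of fungal beta-glucan, averaged 6.04 ± 0.284 in Stat2 KO hosts, against 6.21 ± 0.196 in WT hosts, a difference of -0.17 (SE 0.168). Clec4e, Mincle itself, differed by 0.08 (SE 0.170), and Clec5a, which signals through DAP12, by 0.14 (SE 0.139). The 95% intervals of these 5 genes lay between -0.73 and 0.45, so a doubling or halving of the reading fell outside them, as it did for all 31 members. Such intervals concern the array reading, which understates a change where the probe set is near background.

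The DCIR and DCAR cluster of dendritic cell and macrophage receptors held members that differed in opposite directions. Clec4b2, a relative of the activating receptor DCAR, read 5.85, 6.23 and 5.96 in Stat2 KO hosts, against 5.62, 5.79 and 5.68 in WT hosts. Its groups did not overlap, and the difference was 0.32 (SE 0.143, limma adjusted p = 0.562), 0.21 without Stat2 KO replicate 2, its highest tumour. Its unadjusted p was under 0.05 in 5 of 14 alternatives, none of them another scaling. Clec4a1, a DCIR-like receptor outside the naming rule and chosen after its values were seen, read 5.31, 5.29 and 5.49 in Stat2 KO hosts, against 5.65, 5.74 and 5.57 in WT hosts. It too had groups that did not overlap, with a difference of -0.29 (SE 0.137, limma adjusted p = 0.568). Under the 3 other scalings the difference was -0.40 to -0.37, with an unadjusted p under 0.05.

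The other 4 genes of that cluster had overlapping groups. Clec4a4, the inhibitory receptor DCIR2, differed by 0.28 (SE 0.154) from readings below the olfactory median. Clec4a2, DCIR, which carries an inhibitory tail motif, averaged 5.42 ± 0.107 in Stat2 KO hosts, against 5.42 ± 0.111 in WT hosts (SD, n = 3 each), with a 95% interval of -0.30 to 0.30 for the difference. Clec4a3 differed by -0.07 and Clec4b1, DCAR, by -0.08, the last from a mean of 3.62, the dimmest probe set of the family. The DCIR genes are close paralogs, and their probe sets can bind more than 1 transcript.

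Over all 15 myeloid members the median difference was -0.07, with 8 lower and 7 higher. Their mean level was 5.38, 5.49 and 5.54 in Stat2 KO hosts, against 5.37, 5.46 and 5.61 in WT hosts, so the groups overlapped. Without WT replicate 3, the tumour with the highest mean, the median was 0.058. It was -0.15 after median centring, -0.10 after cyclic loess and 0.014 with array weights. Macrophage and monocyte markers were lower in 12 of 15 genes, with a median of -0.21 and mean levels of 6.01, 6.12 and 6.25 in Stat2 KO hosts, against 6.46, 6.47 and 6.27 in WT hosts. Of these markers 5 were lower at an unadjusted p under 0.05, 33.3% where all genes gave 3.48%, 1 was higher, 6.67% where all genes gave 5.34%, and 0 passed the adjusted threshold. The leukocyte gene Ptprc averaged 5.53 ± 0.329 in tumours of Stat2 KO hosts, against 5.87 ± 0.185 in tumours of WT hosts (SD, n = 3 each), with overlapping groups. Dendritic cell markers were higher in 8 of 9 genes with a median of 0.086, and neutrophil markers in 8 of 9 with a median of 0.12. Only 3 of the dendritic cell markers and 0 of the neutrophil markers lay above the median gene. Olfactory receptor genes, in the dim range, were higher in 903 of 1105 with a median of 0.22. Mean levels of the dendritic cell markers ran from 5.997 to 6.26 in Stat2 KO hosts, against 5.97 to 6.17 in WT hosts, and those of the neutrophil markers from 5.48 to 5.66 in Stat2 KO hosts, against 5.38 to 5.51 in WT hosts. The part of these marker differences in those of the Clec receptors was not tested.

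Receptors of vessels and platelets were higher in 4 of 4 genes, and the 95% interval of each difference included 0. Their median was 0.14, beside 0.22 for olfactory receptor genes, of which 903 of 1105 were higher. Clec14a, an endothelial receptor that binds multimerin 2, was outside the naming rule and chosen after its values were seen. It read 5.88, 5.95 and 5.96 in Stat2 KO hosts, against 5.77, 5.78 and 5.78 in WT hosts. The groups did not overlap, yet the difference was only 0.16 (SE 0.126, limma adjusted p = 0.717). Clec1a, an endothelial and myeloid receptor of fungal melanin, differed by 0.24 (SE 0.138), and Clec4g, of liver sinusoidal endothelium, by 0.12 (SE 0.149). Under the 3 other scalings the difference fell to between 0.054 and 0.080 for Clec14a, 0.14 and 0.17 for Clec1a, and 0.015 and 0.044 for Clec4g. Clec4g differed by 0.025 once Stat2 KO replicate 2 was left out.

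Clec1b, CLEC-2, the platelet receptor of podoplanin, averaged 4.96 ± 0.0964 in Stat2 KO hosts, against 4.88 ± 0.194 in WT hosts (SD, n = 3 each), below the olfactory median, with a difference of 0.08. A further probe set that names Clec1b together with another gene was not used. Of the marker lists, endothelial genes were higher in 4 of 8 with a median of 0.0070, and mean levels of 6.48 to 6.76 in Stat2 KO hosts, against 6.66 to 6.73 in WT hosts. Platelet genes were higher in 5 of 6 with a median of 0.14, and mean levels of 6.22 to 6.54 in Stat2 KO hosts, against 6.11 to 6.36 in WT hosts. Neither list had a member past the adjusted threshold, and their part in the receptor differences was not tested.

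The Clr genes encode surface ligands of NKR-P1 receptors on natural killer and other lymphoid cells. Clec2l, which lies apart from the rest on chromosome 6, was grouped with them, though its place among these ligands was not checked. It was 1 of 5 higher genes among the 7 measured members of this group. Clec2d, Clr-b, which engages the inhibitory receptor encoded by Klrb1b, had the most negative difference among them. It read 6.25, 6.08 and 6.29 in Stat2 KO hosts, against 6.32, 6.41 and 6.73 in WT hosts. The groups did not overlap but nearly touched, and WT replicate 3 alone stood clearly higher. The difference was -0.28 (SE 0.147, limma adjusted p = 0.61), and without that tumour it was -0.15. Under the 3 other scalings it was -0.35 to -0.34, with an unadjusted p under 0.05, and without WT replicate 1 it was -0.36.

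Clec2i, Clr-g, and Clec2h differed by 0.30 (SE 0.166) and 0.27 (SE 0.193), with Stat2 KO replicate 2 at 6.33 for Clec2i and replicate 3 at 6.43 for Clec2h. Clec2i differed by 0.11 once Stat2 KO replicate 2 was left out, and Clec2h by 0.093 once Stat2 KO replicate 3 was. In the other direction, Clec2i differed by 0.42 without Stat2 KO replicate 3, and Clec2h by 0.50 without Stat2 KO replicate 1 and by 0.41 with array weights, each with an unadjusted p under 0.05. Clec2m read 6.34, 6.56 and 6.64 in Stat2 KO hosts, against 6.49, 6.49 and 6.36 in WT hosts. Its groups overlapped, and its difference of 0.07 (SE 0.135) turned to -0.0073 after median centring. Clec2l, Clec2e and Clec2g differed by 0.08, 0.05 and -0.09. Clec2l had the widest spread of any member, an SD of 0.427 in Stat2 KO hosts, with replicate 2 at 6.28 and the others at 5.49 and 5.60, and its difference was -0.16 once replicate 2 was left out. The receptor genes Klrb1 and Klrb1b differed by 0.31 (SE 0.160) and 0.23 (SE 0.157), with limma adjusted p-values of 0.601 and 0.675. Natural killer cell markers were higher in 3 of 5 genes with a median of 0.14, and mean levels of 5.48 to 5.73 in Stat2 KO hosts, against 5.45 to 5.62 in WT hosts. Their part in the Clr differences was not tested.

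The 4 soluble and matrix members were all higher by estimate, and Clec11a was the one with an unadjusted p under 0.05. It encodes a secreted growth factor of blood progenitors and bone, and read 5.73, 5.66 and 5.50 in Stat2 KO hosts, against 5.32, 5.28 and 5.34 in WT hosts. The groups did not overlap, with WT tumours tightly together. The difference was 0.31 (SE 0.135, limma adjusted p = 0.547), and it was 0.23 after quantile normalization, 0.24 after median centring and 0.21 after cyclic loess. Without Stat2 KO replicate 2 it was 0.30. Its unadjusted p was under 0.05 in 6 of 14 alternatives, and in none of the 3 scalings. With 1 array left out it was under 0.05 only when this was Stat2 KO replicate 3.

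Clec18a, a secreted protein, read 6.45, 6.91 and 6.95 in Stat2 KO hosts, against 6.59, 6.63 and 6.68 in WT hosts. Stat2 KO replicate 1 lay below all WT tumours and the others above, and the difference was 0.14 (SE 0.154). It was 0.30, with an unadjusted p under 0.05, without Stat2 KO replicate 1, and 0.067 and 0.045 without replicates 2 and 3. Clec3a, a cartilage protein, differed by 0.17 (SE 0.152), or 0.061 without Stat2 KO replicate 2, and Clec3b, tetranectin, which binds plasminogen, by 0.02 (SE 0.142). Fibroblast markers were lower in 6 of 7 genes with a median of -0.41, with mean levels of 6.84, 6.37 and 6.65 in Stat2 KO hosts, against 7.17, 7.23 and 6.89 in WT hosts. Their part in the readings of the matrix members was not tested.

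Clec16a encodes an intracellular protein of endosomes and mitophagy. It read 7.37, 6.96 and 6.99 in Stat2 KO hosts, against 7.15, 7.15 and 7.19 in WT hosts. Stat2 KO replicate 1 stood above the WT tumours and the others below them. The difference was -0.06 (SE 0.144), and it was 0.016 once Stat2 KO replicate 2 was left out and 0.0047 once replicate 3 was.

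Spread between tumours was larger in Stat2 KO hosts for 20 of the 31 members. The median SD over members was 0.174 in Stat2 KO hosts, against 0.140 in WT hosts. For the 16 non-myeloid members, whose median difference was 0.10, it was 0.165 in Stat2 KO hosts, against 0.116 in WT hosts. That median difference was 0.035 after quantile normalization, 0.026 after median centring and 0.016 after cyclic loess. Stat2 KO replicate 3 held the highest value of its group for 14 members, replicate 2 for 12 and replicate 1 for 5. Among WT tumours replicate 3 was highest for 18 members, 10 of them myeloid.

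Of the members, 23 lie on chromosome 6, per the RefSeq table of GRCm38.p6, used here for gene order only. From Clec4a1 to Clec4e, 9 members follow each other with no other protein-coding gene between them. Within this run 5 were lower and 4 higher. Some neighbours differed in sign, as with Clec4b2 at 0.32 beside Clec4n at -0.33. Others shared it, as with Clec4n beside Clec4d at -0.28. In the run of 6 members from Clec2m to Clec7a, which holds Clec12a, 3 were lower and 3 higher. Members on chromosome 6 had a median difference of 0.052, and the 8 members elsewhere 0.15.

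Of 26 measured genes that carry the signal of Clec receptors, 20 were lower and 6 higher, and 0 passed the adjusted threshold. Their median was -0.09, against 0.021 over all genes and -0.068 over the genes brighter than the median gene. Above the median gene lay 19 of the 26, and the part of level in their differences was not tested. At an unadjusted p under 0.05 there were 4, all lower, 15.4% where all genes gave 3.48% in that direction. Fcer1g, the shared signalling chain of Mincle, Dectin-2 and DCAR, read 6.54, 6.47 and 6.63 in Stat2 KO hosts, against 7.005, 7.34 and 7.15 in WT hosts. Each Stat2 KO tumour read lower than each WT tumour, with a difference of -0.62 (SE 0.137, limma adjusted p = 0.351). Tyrobp, which encodes DAP12, the chain used by Clec5a, read 6.57, 6.55 and 6.65 in Stat2 KO hosts, against 6.85, 7.04 and 6.91 in WT hosts. Its groups did not overlap either, and the difference was -0.35 (SE 0.128, limma adjusted p = 0.509).

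Plcg2, a phospholipase activated by Syk, differed by -0.63 (SE 0.175), and the NF-kappaB subunit gene Rel by -0.38 (SE 0.174), with limma adjusted p-values of 0.46 and 0.566. Syk itself averaged 6.12 ± 0.123 in Stat2 KO hosts, against 6.06 ± 0.0553 in WT hosts, and Card9 5.73 ± 0.0383 in Stat2 KO hosts, against 5.78 ± 0.0661 in WT hosts (SD, n = 3 each). Both had overlapping groups and differences of 0.07 and -0.04. Fcer1g and Tyrobp also serve Fc and other receptors of myeloid cells, so their levels are not those of Clec signalling alone.

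**Figure D4:**
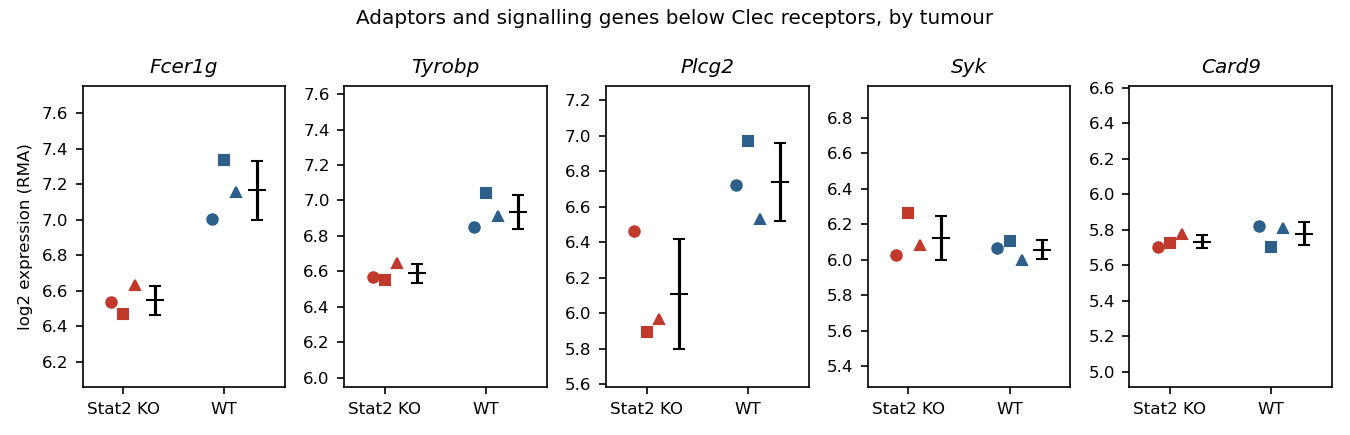
Log2 expression by tumour of Fcer1g, Tyrobp, Plcg2, Syk and Card9, red for Stat2 KO hosts and blue for WT hosts, with black bars for mean and SD and an equal range in each panel. Fcer1g, Tyrobp and Plcg2 have groups that do not overlap, lower in Stat2 KO hosts, and Syk and Card9 overlap.

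Among 12 measured partners and ligands of Clec proteins 6 were lower and 6 higher. Pdpn, podoplanin, the ligand of CLEC-2, was the 1 with an unadjusted p under 0.05, 8.33% of these genes where all genes gave 8.82%. It read 7.81, 7.21 and 7.61 in Stat2 KO hosts, against 8.76, 8.58 and 8.09 in WT hosts, a difference of -0.93 (SE 0.197, limma adjusted p = 0.316). Mmrn2, the ligand of Clec14a, differed by 0.19 (SE 0.136), with overlapping groups. Of 24 measured C-type lectin genes without a Clec name, 9 were lower and 15 higher with a median of 0.031. Cd209c, a mouse relative of DC-SIGN, was the 1 with an unadjusted p under 0.05, 4.17% of these genes where all genes gave 8.82%. It read 7.17, 7.18 and 7.28 in Stat2 KO hosts, against 6.74, 6.83 and 6.97 in WT hosts. Its difference was 0.36 (SE 0.130, limma adjusted p = 0.509). The mannose receptor gene Mrc1 differed by -0.04. Interferon response genes were lower in 12 of 13, with a median of -0.37, beside a median of 0.080 over the 31 Clec members. The difference between these medians was not tested, and the lists read at unlike levels. Above the median gene lay 10 of the 13 interferon genes and 4 of the 31 Clec members.

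**Figure D5:**
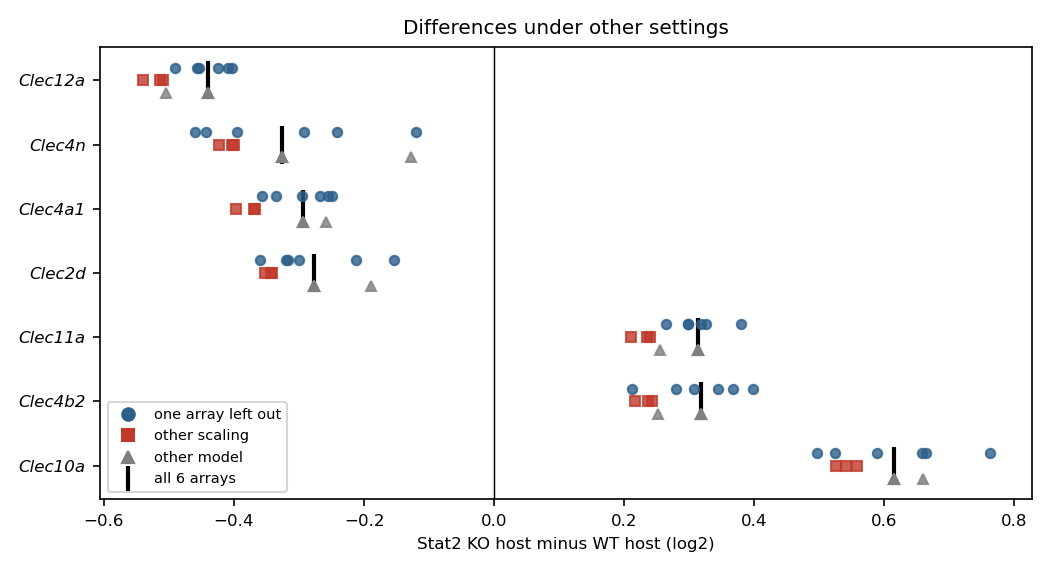
Log2 differences, Stat2 KO host minus WT host, of the 7 members Clec12a, Clec4n, Clec4a1, Clec2d, Clec11a, Clec4b2 and Clec10a, with all 6 arrays (black bar), 1 array left out (blue), other scaling (red) or another model (grey). Clec12a stays between -0.54 and -0.40 and Clec10a between 0.50 and 0.76, while Clec4n runs from -0.46 to -0.12.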

How the data were processed

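RNA of 6 tumours was labelled with biotin and hybridised to Affymetrix arrays. Values were deposited as log2 expression, which per the submitters' processing notes came from RMA in Affymetrix Expression Console 1.3.1. RMA corrects background, scales arrays to a common distribution and then summarises probes. In the deposited values the medians over genes still differed by array. They were 6.31, 6.44 and 6.38 in Stat2 KO hosts, against 6.27, 6.32 and 6.34 in WT hosts. The authors' genome build was not given in the sources used here. Of 41345 probe sets, 23521 name 1 gene, 1814 several and 16010 none, and a gene was read by its brightest single-gene probe set over the 6 arrays. Dim probe sets were kept.

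Differences were fitted over all 22180 genes with limma 3.58.1 in R 4.3.3 (lmFit, eBayes with intensity trend, 4 residual and 8.14 prior degrees of freedom), two-sided, at an adjusted threshold of 0.05. The 95% intervals use the moderated SE. The procedure was tested on simulated data. Members, lists and naming rule were chosen with earlier results of these data known. Values by tumour are given for members with an unadjusted p under 0.05, or groups that do not overlap and a difference of at least 0.3, and for the 5 brightest probe sets. Tumour values of Clec4a1, Clec14a, Clec4n, Clec4d, Clec2i, Clec2h and Clec2l fell outside this rule and were chosen after they were seen. Up to 4 genes of each other list could be named by smallest p, while Mgl2, Mmrn2, Mrc1, Syk and Card9 were added for their roles with their values known. Of 29 signalling, 13 partner, 26 other lectin, 16 macrophage, 8 platelet, 6 natural killer and 16 interferon genes listed, 26, 12, 24, 15, 6, 5 and 13 were measured. B cell and keratinocyte markers, listed as a check for other cells, had median differences of 0.070 and 0.17. Alternatives were a replicate block, 3 scalings, a brightness filter, another probe set rule, 2 variance models, array weights and each array left out.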

Additional observations from a re-analysis of the deposited data

How the results depend on the processing

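The count of Clec members past the adjusted threshold was 0 under all 15 alternatives. The 4 members with an unadjusted p under 0.05 became 8 with array weights and 0 under the brightness filter, which leaves 4 members. They ranged from 2 to 7 with 1 array left out, with 7 when Stat2 KO replicate 1 was left out and 2 when Stat2 KO replicate 2 or WT replicate 2 was. The share of all genes at that p, 8.82%, was 22.6% with array weights. It was 14.7% when Stat2 KO replicate 1 was left out, 6.62% when Stat2 KO replicate 2 was and 12% when WT replicate 3 was. It was between 5.31% and 5.68% when Stat2 KO replicate 3 or WT replicate 1 or 2 was left out. The cause was not tested. The median of the myeloid members ran from -0.090 to 0.058 with 1 array left out, the highest when this was WT replicate 3, and the median of the other members from 0.064 to 0.19. Of the 31 members, 18 kept their sign under every alternative that retained them. The replicate block, the probe set mean and the 2 variance models leave the members' differences as they are and so cannot change a sign. The sign changes of the other 13 were among values with no call. After quantile normalization Clec2e, Clec2l, Clec3b and Clec4a2 were at -0.030, -0.0060, -0.054 and -0.074. After median centring Clec2e, Clec2m, Clec3b and Clec4a2 were at -0.023, -0.0073, -0.057 and -0.074. After cyclic loess Clec1b, Clec2e, Clec2l, Clec3b, Clec4a2 and Clec4e were at -0.0078, -0.052, -0.022, -0.067, -0.10 and -0.020. With array weights Clec3b, Clec4a2, Clec4a3 and Clec7a were at -0.065, -0.028, 0.18 and 0.090. With 1 array left out the difference ran from -0.061 to 0.047 for Clec4a2, -0.24 to 0.080 for Clec4a3, -0.15 to 0.011 for Clec12b, -0.19 to 0.016 for Clec16a and -0.16 to 0.23 for Clec2l. It ran from -0.071 to 0.065 for Clec3b, -0.091 to 0.17 for Clec2e, -0.29 to 0.058 for Clec4b1, -0.11 to 0.18 for Clec4e, -0.016 to 0.18 for Clec1b and -0.28 to 0.11 for Clec2g. The olfactory receptor median ran from 0.15 to 0.30 over the alternatives that change the values, arrays, weights or genes used. With the replicate block 5 members had an unadjusted p under 0.05 and 0 passed the adjusted threshold. The share of all genes at that unadjusted p was then 11.2%, against 8.82% without the block. Deviations of equal-numbered tumours correlated at 0.24, 0.079 and 0.030 across genes, and those of tumours with different numbers at -0.29 to 0.20. These values do not settle whether equal numbers are pairs. The labels name no pairing, so the main fit used none. Signal over background could not be examined, which limits every dim member.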
